A study of Mus musculus with 4 samples.

Results

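The genes described here start the classical pathway of complement. They are C1qa, C1qb and C1qc, which encode the A, B and C chains of C1q, C1ra and C1s1, which encode the serine proteases C1r and C1s, Serping1, which encodes the C1 inhibitor, and C4b, which encodes complement C4. The 7 genes were chosen by name, and every probe set that the platform annotation gives to one of them was taken. This gave 10 of the 22690 probe sets on the array, of which 8 carried the symbol of 1 gene. C1qa, C1qc, C1ra, C1s1 and Serping1 had 1 such probe set each and C1qb had 3. The only probe set for C4b is annotated to both C4a and C4b, so it is reported as C4a/C4b and kept apart from the other 6 genes. All 6 genes, and C4a/C4b, passed a filter on low values, a mean over the 4 arrays of at least 6.27 on the log2 scale, as did 8207 of the 12394 genes with a probe set of their own. One further probe set, annotated to C1rb and C1ra together, lay below that level.

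C1q binds antibody in immune complexes and, through other ligands, dying cells, and it is the recognition part of the C1 complex. Its binding activates C1r, which cleaves C1s, and C1s then cleaves C4 and C2 to form the C3 convertase of the classical pathway. The C1 inhibitor stops both proteases. Most circulating complement proteins come from the liver, whereas C1q is made mainly by macrophages and dendritic cells, and in the kidney complement deposition is a hallmark of immune complex glomerulonephritis.

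RNA of whole kidney from male C57BL/6 mice aged 17 weeks was hybridised to Affymetrix arrays. The 4 arrays, 1 per group, were GN+Captopril, GN+Water, Saline+Captopril and Saline+Water. In the GN groups, glomerulonephritis was raised with intraperitoneal horse spleen apoferritin, 10 mg on 5 days a week, and 100 µg of Salmonella minnesota lipopolysaccharide as adjuvant 3 times a week, whereas the saline groups were injected with equal volumes of 0.15 M NaCl. Injections ran for 6 weeks from an age of about 8 weeks, captopril, an inhibitor of angiotensin-converting enzyme, was dissolved in the drinking water of its 2 groups at 100 mg/kg/day, and kidneys were taken after 9 weeks. Each group held 6 mice, and the labels leave out whether the RNA on an array was that of 1 mouse or a pool. With 1 array per group no difference has a replicate check, so no test, p-value or error is given, and values are log2 as deposited. In whole kidney, a higher level can come from more cells of a type or from more RNA per cell, and the arrays cannot tell these apart.

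Of the kidney markers, Slc34a1 of the proximal tubule read 13.2 to 13.4 over the 4 arrays and Umod of the thick ascending limb 13.2 to 13.5. Others varied more. Pvalb of the distal tubule ran from 5.57 on GN+Captopril to 9.31 on Saline+Water. Slc22a6 of the proximal tubule ran from 10.6 on the array labelled GN+Water to 12.5 on Saline+Water. None of the 7 measured neutrophil markers passed the filter, which uses the mean over the 4 arrays. Of these, S100a9 read 7.19 on Saline+Water, against 5.38 to 5.98 on the other 3. One array went against its label. Xist, the transcript of the inactive X chromosome, read 8.97 on the array labelled GN+Water, against 5.03 to 5.21 on the other 3, and the Y-linked Eif2s3y read 3.43 there, against 8.02 to 8.29. Genes that respond to androgens in kidney, a list of 8, differed by a median of -4.91 between the array labelled GN+Water and Saline+Water, and by 0.20 between GN+Captopril and Saline+Captopril. In the first of these comparisons 5 of the 8 were at least 2-fold lower and 1, Slc7a12, was at least 2-fold higher. Among the 8207 genes past the filter, 363 were at least 2-fold lower there and 849 at least 2-fold higher. The Saline+Water array differed in another way, since its 18 spike-in control probe sets had a median of 10.8, against 7.46 to 7.89 on the others. For this reason each GN difference is given with and without these 2 arrays, and the pair GN+Captopril and Saline+Captopril, which uses neither, is taken first.

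The promoters of neighbouring members are shown because the genes of each neighbouring set were higher together in GN kidneys. In the RefSeq annotation of GRCm38.p6, C1qb, C1qc and C1qa are consecutive genes on chromosome 4, and C1ra and C1s1 are consecutive on chromosome 6, with C1rl before them and C1rb after. Windows of 300 bases, from 250 before to 50 after the start, matched by symbol for 4 of the 7 members. C1s1 had 2 overlapping windows, of which 1 is printed. C1qa, Serping1 and C4b are named only. The windows are chr4:136886151-136886450 for C1qb, chr4:136892865-136893164 for C1qc and chr6:124542310-124542609 for C1s1, all on the minus strand, and chr6:124512371-124512670 for C1ra on the plus strand. Sequences run 5′ to 3′ along the gene, and capitals mark matches to the motifs named after them.
C1qb: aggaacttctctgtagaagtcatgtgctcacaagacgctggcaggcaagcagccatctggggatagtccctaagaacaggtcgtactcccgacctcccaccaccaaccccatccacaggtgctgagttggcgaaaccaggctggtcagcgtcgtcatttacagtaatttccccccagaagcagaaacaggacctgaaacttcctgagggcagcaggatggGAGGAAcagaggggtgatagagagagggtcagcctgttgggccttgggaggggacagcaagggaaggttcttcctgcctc
C1qc: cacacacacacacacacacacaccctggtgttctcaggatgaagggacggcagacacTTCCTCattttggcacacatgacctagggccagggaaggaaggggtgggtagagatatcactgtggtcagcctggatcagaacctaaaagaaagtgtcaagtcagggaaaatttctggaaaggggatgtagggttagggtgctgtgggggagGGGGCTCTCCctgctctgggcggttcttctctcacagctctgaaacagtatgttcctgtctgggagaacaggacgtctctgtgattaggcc
C1ra: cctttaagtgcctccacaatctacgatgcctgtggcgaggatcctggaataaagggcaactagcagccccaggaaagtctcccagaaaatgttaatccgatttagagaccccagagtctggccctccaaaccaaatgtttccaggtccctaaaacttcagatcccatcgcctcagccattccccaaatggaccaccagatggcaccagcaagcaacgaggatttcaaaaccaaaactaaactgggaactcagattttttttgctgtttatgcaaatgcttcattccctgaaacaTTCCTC
C1s1: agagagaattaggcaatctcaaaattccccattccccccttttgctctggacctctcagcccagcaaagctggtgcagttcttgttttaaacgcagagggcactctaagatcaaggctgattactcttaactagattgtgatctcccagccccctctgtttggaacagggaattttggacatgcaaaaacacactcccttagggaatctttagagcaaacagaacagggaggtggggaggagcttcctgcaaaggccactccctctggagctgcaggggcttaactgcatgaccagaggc

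Both strands were searched for 4 motifs, and the share of all 32851 promoter windows of the table that hold each one is given beside it. The PU.1 core GAGGAA, recognised by a transcription factor of the myeloid lineage, is in 28.3% of all windows. It occurred in C1qb at position -30 from the start, in C1qc at -193 on the opposite strand, and in C1ra at 45 on the opposite strand. The NF-kappa-B consensus, in 8.46% of windows, occurred once, in C1qc at -41. Neither the ISRE core GAAANNGAAA, a site of the type I interferon response in 3.44% of windows, nor the TATA box TATAAA, in 13.6%, was found in a member, and no motif was found in either C1s1 window. None of these matches overlapped another. A match shows only that the letters are there.

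The C1q chains stood higher on both GN arrays than on both saline arrays, an order that 16.1% of all genes had at any size of difference. C1qa was 10.05 on GN+Captopril and 11.09 on the array labelled GN+Water, against 8.75 on Saline+Captopril and 8.89 on Saline+Water. C1qb was 10.06 on GN+Captopril and 10.96 on the array labelled GN+Water, against 8.58 on Saline+Captopril and 8.23 on Saline+Water. For C1qc the levels were 9.47 on GN+Captopril and 10.23 on the array labelled GN+Water, against 7.82 on Saline+Captopril and 8.06 on Saline+Water. For each chain the array labelled GN+Water was highest and GN+Captopril second, while the saline arrays lay close together, with Saline+Water second lowest for C1qa and C1qc and lowest for C1qb. The lower GN array exceeded the higher saline array by 1.16 for C1qa, 1.48 for C1qb and 1.41 for C1qc.

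In the pair without the 2 arrays that stood apart, GN+Captopril over Saline+Captopril, the chains were 2.46-fold (C1qa), 2.78-fold (C1qb) and 3.14-fold (C1qc) higher. In the water pair, the array labelled GN+Water over Saline+Water, they were 4.59-fold, 6.63-fold and 4.50-fold higher in the same order of genes. The 3 chains, whose products assemble into 1 molecule, differed from each other by 0.35 on the log2 scale in the captopril pair and by 0.56 in the water pair. Measured from Saline+Captopril instead, the GN difference of the array labelled GN+Water was 2.34 for C1qa, 2.38 for C1qb and 2.41 for C1qc, a span of 0.07.

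The other 2 probe sets of C1qb showed the same order of GN and saline arrays. The second was 8.97 on GN+Captopril and 9.80 on the array labelled GN+Water, against 7.73 on Saline+Captopril and 7.52 on Saline+Water. The third was 9.27 on GN+Captopril and 9.90 on the array labelled GN+Water, against 7.33 on Saline+Captopril and 7.02 on Saline+Water. Both are of a type whose probes can match other transcripts. The GN difference of the 3 C1qb probe sets ranged from 1.24 to 1.93 in the captopril pair and from 2.28 to 2.88 in the water pair, so that probe sets of this 1 gene were spread by 0.69 and 0.60, more than the 3 chains were. Over the 5 C1q probe sets the GN arrays were 2.37-fold to 3.82-fold higher on captopril.

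**Figure D1:**
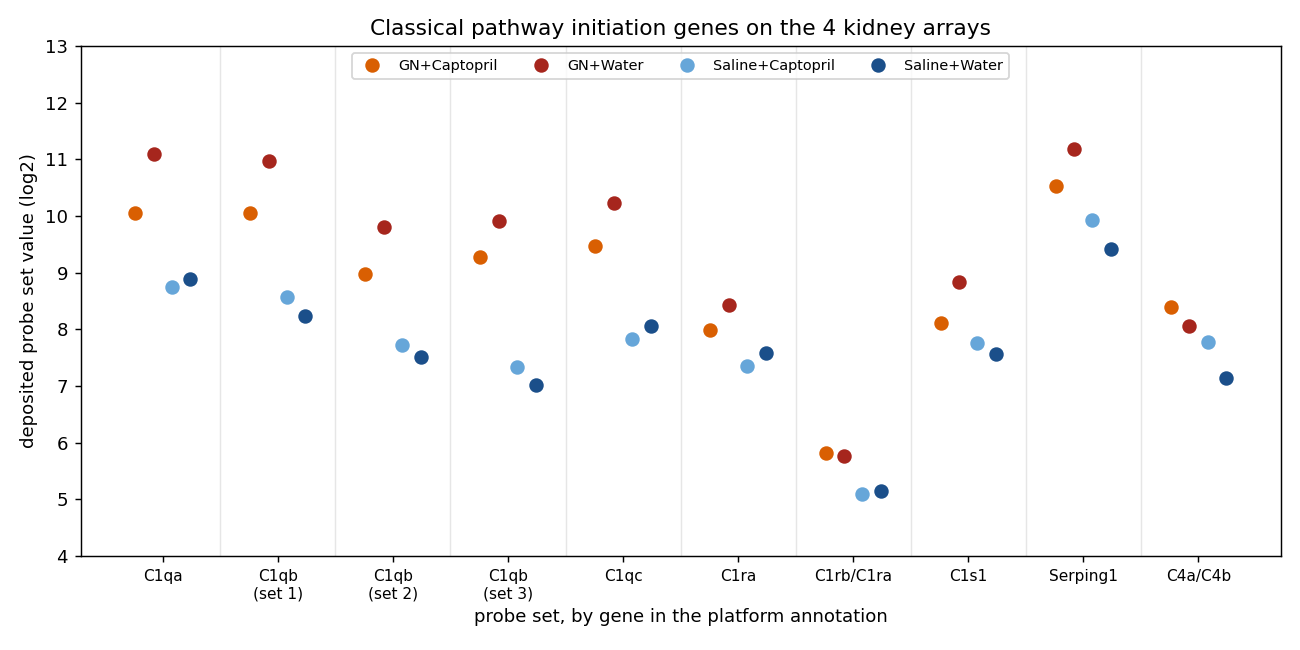
Deposited log2 value (vertical axis) of the 10 probe sets of the classical pathway initiation genes (horizontal axis), with 1 point per array and no error, since each group has 1 array. In all 10 probe sets both GN arrays lie above both saline arrays, an order that 16.1% of genes past the filter have at any size. GN+Captopril lies above the array labelled GN+Water in C4a/C4b and in C1rb/C1ra, the set below the filter.

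The proteases that C1q activates, C1r and C1s, were also higher on the GN arrays, by less. C1ra was 7.99 on GN+Captopril and 8.43 on the array labelled GN+Water, against 7.35 on Saline+Captopril and 7.59 on Saline+Water. C1s1 was 8.11 on GN+Captopril and 8.83 on the array labelled GN+Water, against 7.76 on Saline+Captopril and 7.56 on Saline+Water. The only probe set of C1s1 is also of a type whose probes can match other transcripts. Both GN arrays lay above both saline arrays for each gene, as they did for 16.1% of all genes at any size of difference. The gap between the lower GN array and the higher saline array was 0.40 for C1ra and 0.35 for C1s1, the 2 narrowest gaps of the 6 members. On captopril the GN array was 1.56-fold higher for C1ra and 1.28-fold higher for C1s1. In the water pair it was 1.78-fold higher for C1ra and 2.41-fold higher for C1s1, so the order of these neighbouring genes differed between the pairs. The probe set annotated to both C1rb and C1ra, near-identical copies whose signal cannot be told apart here, read 5.82 on GN+Captopril and 5.77 on the array labelled GN+Water, against 5.10 on Saline+Captopril and 5.15 on Saline+Water.

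Serping1, the inhibitor of C1r and C1s, was higher in GN kidneys along with its targets. Its level was 10.52 on GN+Captopril and 11.18 on the array labelled GN+Water, against 9.92 on Saline+Captopril and 9.42 on Saline+Water. Both GN arrays lay above both saline arrays, as for 16.1% of all genes at any size, with a gap of 0.60 between the nearest. Serping1 was 1.51-fold higher in the captopril pair and 3.39-fold higher in the water pair. Of its levels the one on Saline+Water was the lowest, and with Saline+Captopril in its place the array labelled GN+Water was 2.39-fold higher.

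C4 is the first substrate of active C1s, and its shared probe set had another order. C4a/C4b was 8.40 on GN+Captopril and 8.06 on the array labelled GN+Water, against 7.78 on Saline+Captopril and 7.14 on Saline+Water. Both GN arrays lay above both saline arrays by at least 0.28, an order that 16.1% of all genes had at any size. The highest value was on GN+Captopril. The GN difference was 1.54-fold in the captopril pair and 1.88-fold in the water pair. C4b and C4a lie on either side of Cyp21a1 on chromosome 17 in the RefSeq annotation, which lists C4a as a transcribed pseudogene, and which of them the signal came from cannot be told.

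Set against all genes, the members' GN difference was large in the captopril pair. Of the 6 members, 3, the C1q chains, were at least 2-fold higher on GN+Captopril than on Saline+Captopril, as were 0.719% of the 8207 genes. At 1.5-fold the count was 5, all but C1s1, where 1.85% of genes passed. The median difference of the 6 members was 0.97 and that of all genes 0.00. In this pair the middle 95% of genes lay between -0.30 and 0.48, and C1qa, C1qb, C1qc, C1ra, Serping1 and C4a/C4b lay above it. Ranked from the highest of the 8207 genes, C1qc was 19, C1qb 25, C1qa 35, C1ra 129, C4a/C4b 140, Serping1 144 and C1s1 357.

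In the water pair the differences were larger, and so was the spread of all genes. Of the 6 members, 5, all but C1ra, were at least 2-fold higher, as were 10.3% of all genes on the array labelled GN+Water relative to Saline+Water. Their median was 1.97, against 0.00 for all genes, and the middle 95% of genes ran from -1.18 to 1.88. Only the C1q chains lay above that range, at rank 44 for C1qb, 108 for C1qa and 113 for C1qc, while Serping1 ranked 249, C1s1 546, C4a/C4b 979 and C1ra 1073.

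Crossing the pairs separates the 2 arrays that stood apart. On the array labelled GN+Water against Saline+Captopril, all 6 members were at least 2-fold higher, as were 2.5% of genes, with a median of 1.80. On GN+Captopril against Saline+Water, 4 members, the C1q chains and Serping1, were at least 2-fold higher, as were 7.8% of genes, with a median of 1.13. Both GN arrays lay above both saline arrays for 6 of the 6 members, a pattern that 16.1% of all genes share at any size of difference. Comparisons that share an array are not independent of each other.

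**Figure D2:**
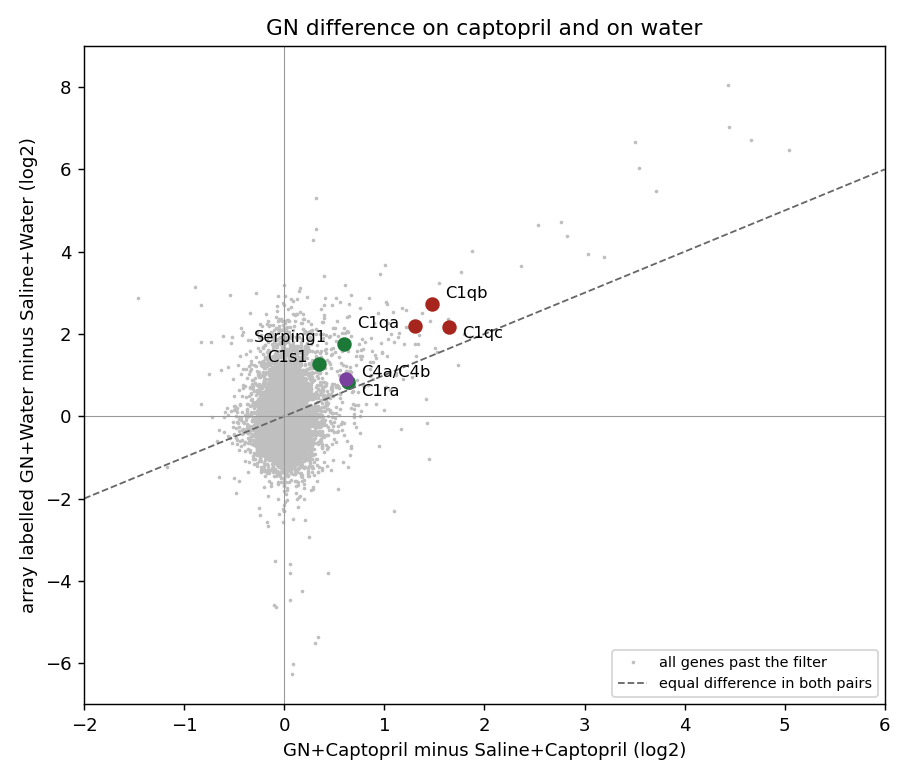
GN minus saline difference (log2) on captopril (horizontal axis) and on water (vertical axis, with the array labelled GN+Water) for 8207 genes past the filter as grey points, with the C1q chains in red, C1ra, C1s1 and Serping1 in green and C4a/C4b in purple. All 7 coloured points lie above 0 on both axes and above the dashed line of equal difference, and the 2 axes have different scales.

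Among GN kidneys, captopril went with lower levels of the members, except C4a/C4b. Relative to the array labelled GN+Water, GN+Captopril was 2.06-fold lower for C1qa, 1.87-fold lower for C1qb and 1.70-fold lower for C1qc. It was 1.35-fold lower for C1ra, 1.65-fold lower for C1s1 and 1.58-fold lower for Serping1, whereas C4a/C4b was 1.27-fold higher. The probe set annotated to both C1rb and C1ra, below the filter, was 1.03-fold higher. Of the 6 members 1, C1qa, was at least 2-fold lower, as were 1.12% of all genes, and 5, all but C1ra, were at least 1.5-fold lower, as were 4.52% of all genes. Their median was -0.74, with all genes at 0.0034, and the 3 C1q chains lay below the middle 95% of genes, which ran from -0.74 to 0.71. Counted from the lowest of the 8207 genes, C1qa was 81, C1qb 113, C1qc 190, C1s1 216, Serping1 285 and C1ra 606.

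This comparison rests on the array whose sex-linked transcripts went against its label. Androgen-responsive genes differed by a median of 5.37 between GN+Captopril and the array labelled GN+Water, and their part in the members' difference was not tested. GN+Captopril below the array labelled GN+Water and both above the saline arrays was the order of all 6 members, and 12.1% of all genes had it.

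In saline kidneys the members differed little between captopril and water. On Saline+Captopril minus Saline+Water the differences were -0.14 for C1qa, 0.35 for C1qb, -0.24 for C1qc, -0.24 for C1ra, 0.20 for C1s1 and 0.50 for Serping1, with a median of 0.03. Of the 6 members 0 were at least 1.5-fold higher and 0 were at least 1.5-fold lower, where 15.6% of all genes were higher and 10.2% lower. C4a/C4b was 1.55-fold higher on Saline+Captopril, so for this probe set the captopril array was the higher one in both GN and saline kidneys. The middle 95% of genes in this pair, which includes the Saline+Water array, ran from -0.96 to 1.42, and all members lay within it.

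The GN difference was smaller in the captopril pair than in the water pair for the probe set that stood for each member. The captopril pair minus the water pair was -0.90 for C1qa, -1.25 for C1qb, -0.52 for C1qc, -0.19 for C1ra, -0.92 for C1s1, -1.16 for Serping1 and -0.29 for C4a/C4b. The median of the 6 members was -0.91 and that of all genes was -0.0027. Each of these values draws on all 4 arrays, including both that stood apart, and has no error. Measured from Saline+Captopril, C4a/C4b was 0.62 higher on GN+Captopril and 0.28 higher on the array labelled GN+Water. The C1rb/C1ra probe set, below the filter, had the larger GN difference in the captopril pair, 0.72 against 0.63 in the water pair.

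**Figure D3:**
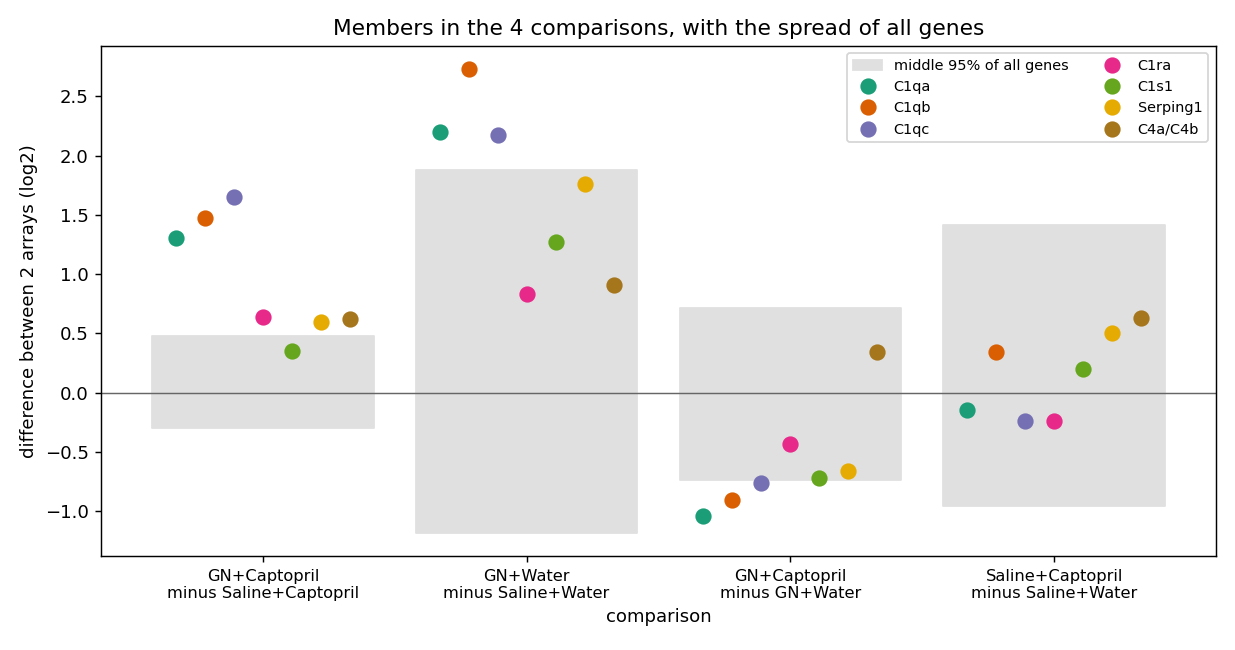
Difference between 2 arrays (log2, vertical axis) for the members in the 4 comparisons (horizontal axis, with GN+Water standing for the array of that label), with grey bands for the middle 95% of the 8207 genes. The C1q chains lie above the band in both GN comparisons and below it between the GN arrays, and no member leaves it between the saline arrays.

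Antibody protein, the ligand of C1q in immune complexes, was not measured. The arrays read the RNA of immunoglobulin genes in the kidney. Of a list of 12, 6 were measured and passed the filter, and 5 of these were at least 2-fold higher in each GN pair. Of all genes, 0.719% were in the captopril pair and 10.3% in the water pair. Ighm, the heavy chain of IgM, was 11.96 on GN+Captopril and 13.65 on the array labelled GN+Water, against 7.30 on Saline+Captopril and 6.94 on Saline+Water. Iglv1, a lambda light chain gene, was 10.41 on GN+Captopril and 12.46 on the array labelled GN+Water, against 5.97 on Saline+Captopril and 5.44 on Saline+Water. Jchain, which joins the units of IgM and IgA, was 10.45 on GN+Captopril and 12.46 on the array labelled GN+Water, against 6.02 on Saline+Captopril and 4.41 on Saline+Water, the last a level not above the negative controls. The list's median was 3.99 in the captopril pair, 6.69 in the water pair and -2.02 between GN+Captopril and the array labelled GN+Water. Between these GN arrays 5 of the 6 genes were at least 2-fold lower on captopril, as were 1.12% of all genes. The exception in the GN pairs was Igha, the IgA heavy chain, at -0.07 on captopril.

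Receptors and binding proteins of C1q showed smaller differences. Of 13 listed genes 11 were measured and 6 passed the filter, with a median of 0.03 in the captopril pair and 0.17 in the water pair. Cd93 is a membrane protein once described as a C1q receptor and found on endothelium and myeloid cells. It was 7.72 on GN+Captopril and 8.16 on the array labelled GN+Water, against 7.10 on Saline+Captopril and 7.05 on Saline+Water. Cd93 was the 1 gene of the 6 at least 1.5-fold higher in each pair. The share of all genes was 1.85% in the captopril pair and 19.6% in the water pair. C1qbp, a protein mainly of mitochondria that also binds C1q, differed by -0.12 on captopril and 0.08 on water, and Itgb1, an integrin chain, by 0.07 and 0.30 in that order. Other proteins with a C1q domain, 7 past the filter of 14 measured and 26 listed, had medians of 0.09 on captopril and -0.12 on water. The adipocyte hormone gene Adipoq was the 1 gene of these at least 2-fold higher in the captopril pair, as were 0.719% of all genes. Its levels were 8.92 on GN+Captopril and 8.25 on the array labelled GN+Water, against 7.77 on Saline+Captopril and 6.24 on Saline+Water.

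In the rest of the cascade the medians were at or below 0 in the captopril pair. Of 15 other genes of the classical and lectin pathways 8 were measured and 3 passed the filter. In either GN pair 0 of the 3 were 1.5-fold higher. The share of all genes was 1.85% in the captopril pair and 19.6% in the water pair. C2, the other substrate of C1s, was 8.93 on GN+Captopril and 9.08 on the array labelled GN+Water, against 8.78 on Saline+Captopril and 9.36 on Saline+Water, so GN and saline arrays overlapped. The lectin pathway genes Masp1, a protease, and Mbl1, a mannose-binding lectin, differed by -0.25 and -0.27 in the captopril pair and by -0.55 and -0.78 in the water pair. Of 26 genes of later complement steps and regulators 21 were measured and 9 passed the filter, with medians of 0.00 on captopril and 0.25 on water. C3ar1, the receptor for the C3a fragment, was the 1 gene of the 9 at least 1.5-fold higher on captopril, as were 1.85% of all genes. Its levels were 7.43 on GN+Captopril and 7.94 on the array labelled GN+Water, against 6.80 on Saline+Captopril and 6.16 on Saline+Water. In the water pair 3 of the 9 were at least 2-fold higher, as were 10.3% of all genes. These 3 were C3ar1, C8a, a chain of the membrane attack complex component C8, and Cfi, the protease factor I. Relatives of Serping1 in the serpin family were 9 past the filter of 11 measured and 16 listed. Their medians were 0.11 and 0.07 in the captopril and water pairs. On captopril 0 of the 9 were 1.5-fold higher or lower, where 152 of the 8207 genes were higher and 17 lower. On water 2 were at least 2-fold higher, as were 10.3% of all genes. At least 2-fold lower on water was 1, as were 363 of the 8207 genes. Nearest to a member in that family on captopril were Serpinb1a at 0.23 and Serpinb6a at 0.22, against 0.60 for Serping1.

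Interferon-responsive genes were examined because the C1 inhibitor and C1s are interferon-inducible in human cells. Of 30 listed genes 24 were measured and 23 passed the filter. In the captopril pair 11 of the 23 were at least 1.5-fold higher, as were 1.85% of all genes, and the list's median was 0.53. In the water pair 14 were, as were 19.6% of all genes, and the list's median was 0.75. Between GN+Captopril and the array labelled GN+Water the list's median was -0.26. There 0 of the 23 were at least 1.5-fold higher, where 304 of the 8207 genes were. At least 1.5-fold lower were 5, as were 4.52% of all genes. Gbp2, an interferon-induced GTPase, was 8.93 on GN+Captopril and 8.91 on the array labelled GN+Water, against 7.08 on Saline+Captopril and 6.99 on Saline+Water. Iigp1, of the immunity-related GTPases, was 9.90 on GN+Captopril and 9.74 on the array labelled GN+Water, against 8.11 on Saline+Captopril and 7.75 on Saline+Water. GN+Captopril minus the array labelled GN+Water was 0.02 for Gbp2, 0.16 for Iigp1 and 0.56 for Igtp, another such GTPase. These 3 genes were named for their large difference in the captopril pair, which also uses GN+Captopril.

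Most markers of macrophages, a cell type that makes C1q, moved with the members. All 18 macrophage markers were measured and 16 passed the filter, with a mean level of 8.56 on GN+Captopril and 9.13 on the array labelled GN+Water, against 7.53 on Saline+Captopril and 7.37 on Saline+Water. Their median difference was 0.99 in the captopril pair, 1.78 in the water pair, -0.67 between GN+Captopril and the array labelled GN+Water and 0.10 between the saline arrays, next to 0.97, 1.97, -0.74 and 0.03 for the 6 members in the same 4 comparisons. In the captopril pair 12 of the 16 were at least 1.5-fold higher, as were 1.85% of all genes. Of the rest, Mertk differed by 0.05 in the captopril pair and -0.39 in the water pair, and Msr1 by 0.11 and 0.01. Lyz2, lysozyme, was 12.01 on GN+Captopril and 12.72 on the array labelled GN+Water, against 8.81 on Saline+Captopril and 8.86 on Saline+Water. Cd163, a scavenger receptor of resident macrophages, stayed at background, 3.67 to 3.71. The part of the macrophage markers in the members' difference was not tested.

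Fibroblast markers, of which 9 were measured and 8 passed the filter, had a mean level of 8.31 on GN+Captopril and 9.08 on the array labelled GN+Water, against 7.92 on Saline+Captopril and 7.62 on Saline+Water. In the captopril pair 2 of the 8 were at least 1.5-fold higher, as were 1.85% of all genes. The list's median was 0.40 in the captopril pair, 1.63 in the water pair and -0.69 between GN+Captopril and the array labelled GN+Water. Beside it, C1ra, C1s1 and Serping1, which fibroblasts also make, had a median of 0.60 in the captopril pair, 1.27 in the water pair and -0.66 between the GN arrays, and the part of these markers was not tested. The 3 adipocyte markers past the filter had a median of 0.73 in the captopril pair, where 2 were at least 1.5-fold higher, and of 0.89 in the water pair, where 3 were. Of all genes, 1.85% were in the captopril pair and 19.6% in the water pair. The 3 B and plasma cell markers past the filter had medians of 0.54 and 0.67 in these pairs. Jchain, 1 of these 3, differed by 4.43 in the captopril pair and 8.05 in the water pair. The part of either list was not tested. The 2 adrenal genes had medians of 0.68 and -0.77 in these pairs. Medians in the captopril pair were 0.20 for 6 endothelial markers, 0.04 for 3 podocyte markers, 0.04 for 6 proximal tubule markers, 0.00 for 3 T cell markers, -0.19 for 5 markers of the loop and distal tubule, -0.09 for 5 collecting duct markers and -0.18 for 4 genes of the liver list, counting genes past the filter.

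**Figure D4:**
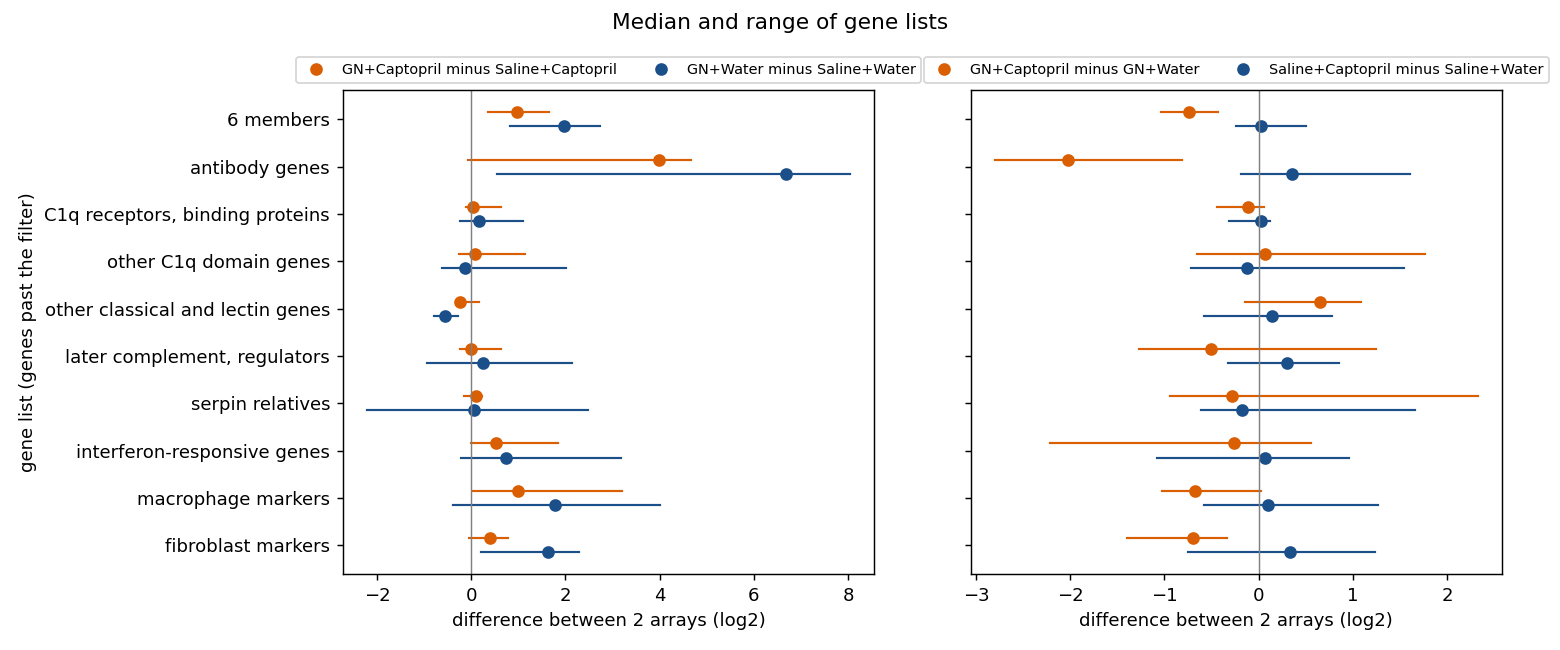
Median (point) and range (line) of the difference between 2 arrays (log2, horizontal axis) for the 6 members and 9 gene lists past the filter (vertical axis), with the GN pairs on the left and the captopril comparisons on the right, where GN+Water stands for the array of that label. The median of the macrophage markers, 0.99 and 1.78 in the GN pairs, lies nearest to that of the 6 members together, 0.97 and 1.97. The C1q chains alone have higher medians, 1.48 in the captopril pair and 2.197 in the water pair.

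Genes with the most similar profile over the 4 arrays were found by the root mean square difference between profiles, each centred on its own mean. The likeness rests on 4 values per gene and on the same arrays, and is a description. Nearest to the mean of the 3 C1q chains were Cd52 at 0.085, Adgre1 at 0.121, Ccl6 at 0.136 and Cd53 at 0.149. Of these, Adgre1 encodes a surface receptor of mouse macrophages, Ccl6 a chemokine, and Cd52 and Cd53 leukocyte surface proteins. The other members lay farther from the C1q mean than these, at 0.422 for Serping1, 0.564 for C1s1 and 0.620 for C1ra. Cd52 was 9.95 on GN+Captopril and 10.66 on the array labelled GN+Water, against 8.49 on Saline+Captopril and 8.36 on Saline+Water.

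C1ra was nearest to Thy1 at 0.055, Bst2 at 0.060, Ifitm3 at 0.062 and Socs2 at 0.067. For C1s1 the nearest were Pip4k2a at 0.025, Sparc at 0.036, Selenow at 0.038 and Ptger4 at 0.040, and for Serping1 they were Oasl2 at 0.052, Mmp14 at 0.069, C3ar1 at 0.074 and Arhgdib at 0.075. C4a/C4b was nearest to Klf10 at 0.037, Bmp2k at 0.079, Bcl2l11 at 0.095 and Cdt1 at 0.097. Among the members, C1s1 was 0.189 from C1ra, its neighbour on the chromosome, and 0.215 from Serping1.

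**Figure D5:**
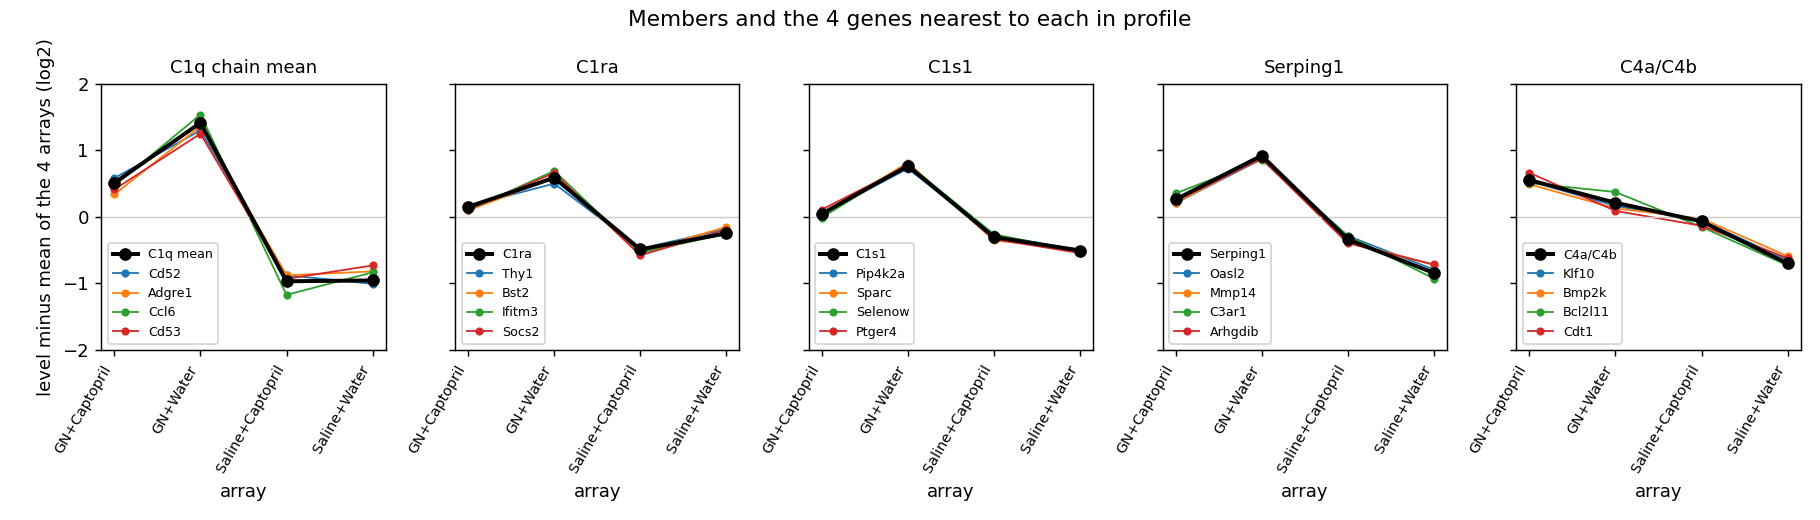
Level minus the mean of the 4 arrays (log2, vertical axis) on each array (horizontal axis, with GN+Water standing for the array of that label) for the mean of the C1q chains, C1ra, C1s1, Serping1 and C4a/C4b in black, each with its 4 nearest genes in colour. The C1q mean spans from -0.97 on Saline+Captopril to 1.41 on the array labelled GN+Water, and of the black lines that of C4a/C4b peaks on GN+Captopril.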

How the data were processed

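Biotinylated cRNA was made from 6 µg of total kidney RNA, per the labels' protocols. The values deposited for probe sets are on a log2 scale, as judged by their range, and they were used unchanged. The submitters' processing notes name GCOS and RMA, with no version or role. The genome build was not given in the sources used here, and neither were the normalisation steps. Probe set names came from the platform annotation, and symbols were brought up to date by Entrez ID. For a gene with several probe sets, the one of highest mean stood for it, and the filter was set at the 40th percentile of that mean over the probe sets. Differences between 2 arrays were computed with Python 3.11.15, numpy 2.4.6 and pandas 2.3.3, figures with matplotlib 3.10.9, and cyclic loess with R 4.3.3 and limma 3.58.1. The scripts were tested on simulated data.

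All members are named. From each list the 3 genes with the largest absolute GN+Captopril minus Saline+Captopril difference could be named, with the 4 genes nearest to each profile. Igha, Cd163, Mertk, Msr1, C8a and the array checks were named after their values were seen. Members and lists were chosen with earlier results of these data known. Alternatives were median centring, quantile and cyclic loess normalisation, other uses of probe sets, other fold thresholds and filters, and other arrays in a pair. Precision is limited by the number of arrays. Promoter sequences are those of RefSeq for GRCm38.p6, and no protein sequence was used here. One further promoter motif is not reported here.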

Additional observations from a re-analysis of the deposited data

Results flagged for a closer look

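For 3 members the captopril difference had opposite signs in GN and in saline kidneys, each seen on 1 pair of arrays and not tested. Captopril minus water was -0.91 in GN kidneys and 0.35 in saline kidneys for C1qb, a difference of -1.25. For C1s1 it was -0.72 in GN kidneys and 0.20 in saline kidneys, a difference of -0.92. For Serping1 it was -0.66 in GN kidneys and 0.50 in saline kidneys, a difference of -1.16. None of the 3 was at least 1.5-fold apart in both kidneys, and each value draws on Saline+Water and on the array labelled GN+Water.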

How the results depend on the processing

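The median of the members between the saline arrays, 0.03, was -0.04 under quantile and -0.02 under cyclic loess normalisation, and no other median or single member value changed sign under the alternatives run. The 120 recomputed values of single members all stayed within 0.25 on the log2 scale. The scalings moved the median of all genes by less than 0.1. The median of the members for GN+Captopril minus Saline+Captopril, 0.97, became 0.64 with the probe set shared by C4a and C4b, an alternative chosen after seeing the data, and 1.80 when the array labelled GN+Water replaced GN+Captopril. The median for the water pair, 1.97, became 1.13 when GN+Captopril was used as its GN array. The count of members at least 2-fold higher in the captopril pair, 3, was 5 at 1.5-fold and 1 at 3-fold. Between GN+Captopril and the array labelled GN+Water the count lower, 1, was 5 at 1.5-fold and 0 at 3-fold, and these counts follow from the thresholds. The cause of the other shifts was not tested. No paired analysis was possible because each group has 1 array. Level differences near background, and all differences between animals, are beyond what 4 arrays can show.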
